A study of Homo sapiens with 6 samples.

Results

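SR proteins and heterogeneous nuclear ribonucleoproteins (hnRNPs) are RNA-binding proteins that decide which splice sites of a pre-mRNA are used. Their genes were followed in HCT116 cells, a human colon cancer line, with and without overexpressed cytoglobin (CYGB). Members were all genes whose symbol was SRSF with a number, or HNRNP with its letters and numbers, with pseudogenes left out. This gave 36 of the 40173 genes in the table, 12 SR genes and 24 hnRNP genes, and 373 of the 151453 transcripts that carry a gene. The 373 transcripts were 187 coding, 88 retained intron, 51 nonsense-mediated decay (NMD) and 47 other processed transcripts by their GENCODE 29 types.

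The MOCK group was 3 libraries of HCT116 cells infected with a control lentivirus, whose genotype the labels give as wild type. The CYGB group was 3 libraries of HCT116 cells infected with a lentivirus carrying the CYGB coding region joined to FLAG. Both lines were kept after puromycin selection and grown to passage 15 to 20, and no source used here says that the libraries of a group came from separate infections. Total RNA was sequenced once per library, and raw counts per transcript were deposited. CYGB itself had 10, 28 and 34 counts in MOCK, against 34935, 27681 and 32333 counts with CYGB. Its log2 fold change was 10.35 (SE 0.45, Benjamini-Hochberg adjusted p = 0.00226 by edgeR's quasi-likelihood test). Counts in transcripts with a gene totalled 47193496 to 53531777 per library. Summed epithelial markers ranged from 4255 to 4722 CPM (counts scaled to library size), with 2 of the 8 under 1 CPM. Fibroblast markers summed to 45.3 to 54.6 CPM with 7 of 8 under 1 CPM, leukocyte markers to 11.9 to 27.5 CPM with 6 of 7 under 1 CPM, and endothelial markers to 1.14 to 2.70 CPM with 4 of 5 under 1 CPM. In bulk RNA, fewer expressing cells and less RNA per cell cannot be told apart. The p-values measure the spread between these libraries.

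SR proteins carry RNA recognition motifs and a tail rich in arginine and serine, bind exonic enhancers and mostly favour the use of nearby splice sites. Many hnRNPs bind silencers in exons or introns and mostly counteract them. Most SR genes and several hnRNP genes also make transcripts with a poison exon or a kept intron, whose early stop codon exposes the mRNA to NMD, and this is a known way in which these proteins limit their own level.

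Early stop codons that define such transcripts in SR genes are printed here. The large unproductive shares of SRSF1 and SRSF7, and the SRSF5 transcript described further on, rest on them. The printed transcripts of SRSF3 and SRSF6 held 2.40% and 14.7% of the counts of their genes. Each sequence is read 5′ to 3′ on the strand of the gene from the GENCODE 29 transcripts (GRCh38). It starts at the first base of the exon and ends with the stop codon. Capitals mark bases that lie outside the exons of the coding transcript named with it.
SRSF1 ENST00000581979: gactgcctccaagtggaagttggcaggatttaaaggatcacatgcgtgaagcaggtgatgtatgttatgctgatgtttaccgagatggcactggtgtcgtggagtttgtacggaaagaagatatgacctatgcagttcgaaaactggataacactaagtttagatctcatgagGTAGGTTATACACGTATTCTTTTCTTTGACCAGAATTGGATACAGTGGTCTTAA
SRSF3 ENST00000477442: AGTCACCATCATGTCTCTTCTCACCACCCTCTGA
SRSF5 ENST00000555547: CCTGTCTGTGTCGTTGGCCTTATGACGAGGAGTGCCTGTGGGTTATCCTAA
SRSF6 ENST00000483871: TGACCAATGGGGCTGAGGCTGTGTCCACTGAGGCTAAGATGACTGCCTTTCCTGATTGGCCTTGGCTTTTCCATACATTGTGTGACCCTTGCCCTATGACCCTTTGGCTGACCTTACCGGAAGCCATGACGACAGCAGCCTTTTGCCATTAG
SRSF7 ENST00000443213: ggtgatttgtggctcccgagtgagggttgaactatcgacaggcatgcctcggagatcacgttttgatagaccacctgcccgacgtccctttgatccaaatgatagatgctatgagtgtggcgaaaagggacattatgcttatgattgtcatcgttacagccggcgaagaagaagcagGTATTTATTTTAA
SRSF7 ENST00000425778: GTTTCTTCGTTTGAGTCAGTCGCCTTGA

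The SRSF1 sequence lies at chr17:58005747-58005973 (minus strand) in exon 3 of 4, which is 1051 bases long. Reading runs past the splice site at the first capitals, GT, and its TAA ends 54 bases into the intron of the coding transcript ENST00000258962. The SRSF7 sequence of ENST00000443213 at chr2:38749516-38749705 (minus strand) does the same within an exon of 1127 bases, where the TAA ends 13 bases into the intron (coding transcript ENST00000313117). The other SRSF7 sequence, at chr2:38749319-38749346 (minus strand), opens a separate exon of 449 bases that the coding transcript skips. SRSF3 at chr6:36599821-36599854 (plus strand, coding transcript ENST00000373715) and SRSF6 at chr20:43459153-43459304 (plus strand, coding transcript ENST00000244020) also use a skipped exon, of 456 and 268 bases. The SRSF5 sequence at chr14:69769511-69769561 (plus strand, coding transcript ENST00000394366) opens an exon of 1030 bases. In all 51 NMD transcripts of the members, the stop codon lay more than 50 bases before the last exon junction, at 75 to 2030 bases with a median of 329 bases. These transcripts were picked by their annotated type, so this describes the annotation and does not show that they are degraded in these cells.

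Levels between genes are given as TPM (counts per kilobase of transcript, scaled to the same total in each library), as mean ± SD over the 6 libraries. The counts of each transcript were divided by its own length and then summed per gene. The order by TPM therefore depends on how reads were divided among isoforms. HNRNPU, for example, had a mean of 630 CPM and 262 TPM, and HNRNPC 546 CPM and 607 TPM. HNRNPA1, which binds splicing silencers, led with 1710 ± 127 TPM. It was followed by HNRNPC, which binds runs of uridine, at 607 ± 81.6 TPM and by HNRNPD, known for binding AU-rich elements in unstable mRNAs, at 516 ± 89.0 TPM. HNRNPF, HNRNPK and HNRNPH1 had 399 ± 26.4, 360 ± 61.3 and 321 ± 29.5 TPM. The highest SR gene was SRSF9 at 304 ± 81.7 TPM, then SRSF5 at 109 ± 21.6 TPM and SRSF3 at 99.7 ± 10.5 TPM. The median tested SR gene had 82.5 TPM and the median tested hnRNP gene 190 TPM.

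In this order, 8 of the 31 pairs of neighbours differed by more than their pooled SD and 23 did not. HNRNPA1, HNRNPC and HNRNPD each stood apart from the next gene. The steps from SRSF5 to SRSF3, from SRSF3 to SRSF7 and from SRSF7 to SRSF10 each lay within the pooled SD. So did the step from SRSF2 at 82.5 ± 14.4 to SRSF1 at 80.7 ± 29.6 TPM. Only neighbours were compared. All members together had 7112 ± 271 TPM, of which the hnRNP genes made up 6074 TPM and the SR genes 1039 TPM (sums of the means over the 6 libraries). They held 0.840 to 0.945% of all counts. SRSF12 and the HNRNPC-like genes HNRNPCL1, HNRNPCL3 and HNRNPCL4 had 0 to 13 counts per library and did not pass the filter on low counts, which left 32 members tested.

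**Figure D1:**
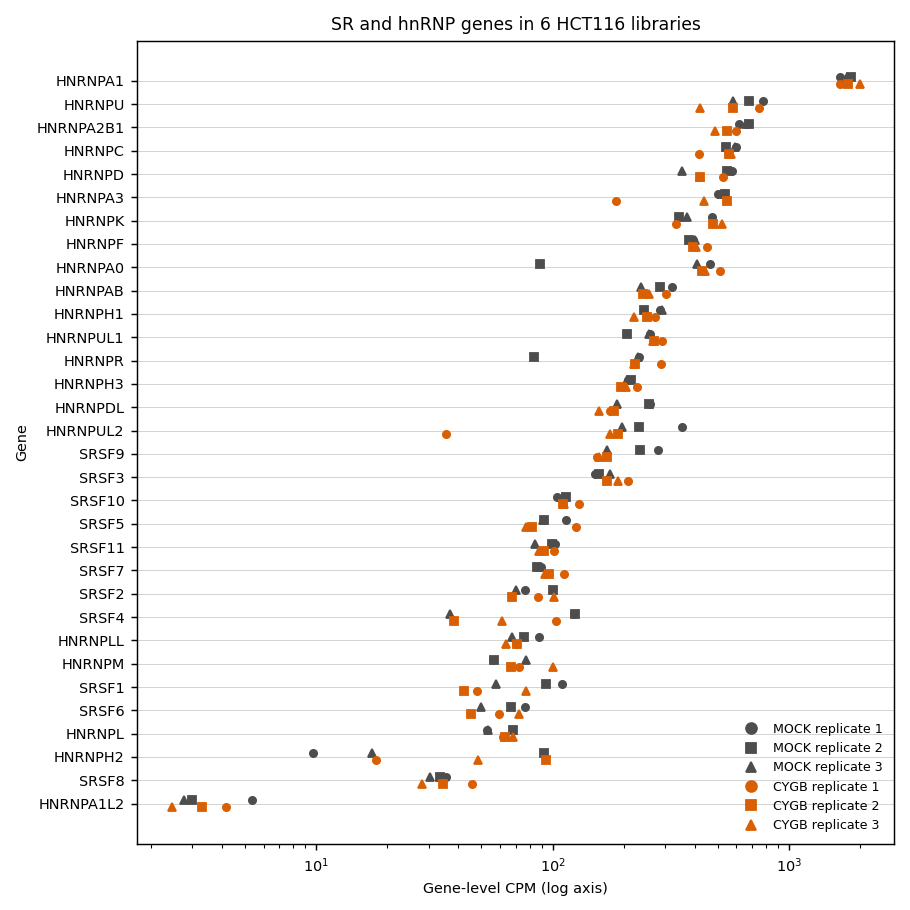
CPM of the 32 tested SR and hnRNP genes in each of the 6 libraries, on a log axis, ordered by mean CPM (grey, MOCK; orange, CYGB; symbol shape, replicate number). The groups overlap in 27 genes, and HNRNPA0, HNRNPR, HNRNPA3 and HNRNPUL2 each have 1 library far to the left of the other 5.

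The question was whether CYGB overexpression changed the level of these genes. The methods set a limit of p at most 0.01, unadjusted, together with a ratio of at least 2 or at most 0.5, called the threshold here. None of the 32 tested members passed it, against 0.565% of all 19987 genes tested (edgeR's quasi-likelihood test). None had an adjusted p under 0.05, against 0.0550% of all genes. An unadjusted p under 0.05 was reached by 3 of 32 members (9.38%) and 907 of 19987 genes (4.54%). DESeq2 and edgeR's exact test also placed 0 members past either limit. The adjusted p of the 32 members ranged from 0.963 to 0.998. Of the members, 14 had higher and 18 lower values in the CYGB group, with a median log2 fold change of -0.05, beside -0.007 for all genes. The median was -0.03 for SR genes and -0.07 for hnRNP genes. The groups did not overlap in 5 members, HNRNPA2B1, HNRNPUL1, HNRNPDL, SRSF7 and HNRNPUL2, against 11.0% of all genes.

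**Figure D2:**
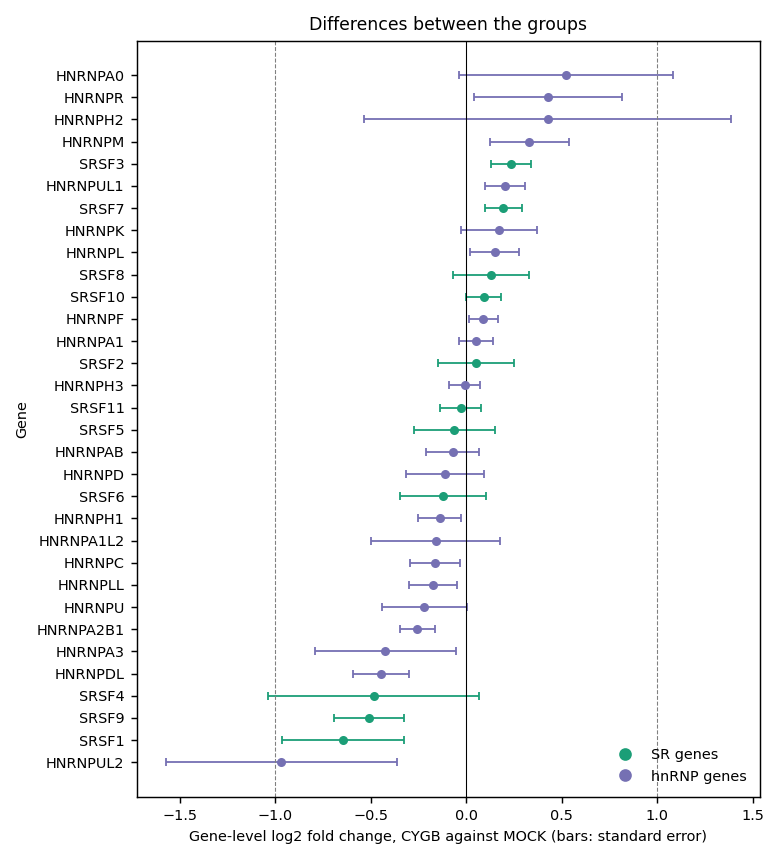
Gene-level log2 fold change of CYGB against MOCK for the 32 tested members, with bars of 1 standard error from edgeR's quasi-likelihood fit (green, SR; purple, hnRNP; dashed lines, ratios of 2 and 0.5). The values run from -0.97 for HNRNPUL2 to 0.52 for HNRNPA0, and the widest bars belong to HNRNPH2, HNRNPUL2, HNRNPA0 and SRSF4.

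Among the SR genes, SRSF1, the founding member of the family and an enhancer-binding splicing activator, had 5184, 4972 and 2968 counts in MOCK, against 2416, 2142 and 4045 counts with CYGB. The groups overlapped, because CYGB replicate 3 lay above MOCK replicate 3. The log2 fold change was -0.65 (SE 0.32, adjusted p = 0.963, edgeR). SRSF9 had 13277, 12431 and 8736 counts in MOCK, against 7769, 8646 and 8309 counts with CYGB. MOCK replicate 3 was close to the CYGB libraries and the other MOCK libraries were above them. SRSF9 had a log2 fold change of -0.51 (SE 0.18, unadjusted p = 0.0317, adjusted p = 0.963, edgeR).

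SRSF4, one of the larger SR proteins, varied most within groups among the tested SR genes, with 5839, 6557 and 1899 counts in MOCK, against 5249, 1947 and 3206 counts with CYGB. Each group held a library at 1899 or 1947 counts and a library of at least 5249 counts, and the log2 fold change was -0.49 (SE 0.55). Without CYGB replicate 1 it was -0.93, without MOCK replicate 3 it was -0.87, and without MOCK replicate 1, MOCK replicate 2 or CYGB replicate 2 it lay between -0.25 and -0.20.

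SRSF3, the smallest SR protein, which also links splicing to mRNA export, had 7175, 8324 and 9028 counts in MOCK, against 10607, 8684 and 9925 counts with CYGB. CYGB replicate 2 lay within the range of MOCK in raw counts, and the log2 fold change was 0.23 (SE 0.10). SRSF7, an SR protein with a zinc knuckle, had 4218, 4549 and 4541 counts in MOCK, against 5654, 4911 and 4893 counts with CYGB. All CYGB libraries were above all MOCK libraries, by a log2 fold change of 0.19 (SE 0.09, adjusted p = 0.963, edgeR). SRSF2, a core protein of nuclear speckles, had 3621, 5310 and 3612 counts in MOCK, against 4415, 3447 and 5312 counts with CYGB. These ranges were nearly the same, and the log2 fold change of 0.05 (SE 0.20) became -0.05 without MOCK replicate 3 and -0.09 without CYGB replicate 3.

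Among the most abundant hnRNP genes, HNRNPA1 had 77882, 96801 and 90618 counts in MOCK, against 83217, 90768 and 105111 counts with CYGB. The groups overlapped and the log2 fold change was 0.05 (SE 0.09), or -0.03 without CYGB replicate 3. HNRNPA1 also has 59 pseudogenes in the table, which held 2627 to 5214 counts per library, and how reads were divided among near-identical copies is not given in the sources used here. HNRNPU, a scaffold protein of nuclear RNA and chromatin, had 36703, 35964 and 29901 counts in MOCK, against 37797, 29600 and 22086 counts with CYGB. It spanned a wide range in both groups (log2 fold change -0.22, SE 0.22), and the difference was -0.03 without CYGB replicate 3, -0.11 without MOCK replicate 1 and -0.43 without CYGB replicate 1. HNRNPC had 28357, 28731 and 30384 counts in MOCK, against 21124, 28350 and 30066 counts with CYGB. CYGB replicate 1 was the lowest and the other 5 libraries were alike (log2 fold change -0.16, SE 0.13, or -0.03 without CYGB replicate 1). HNRNPD had 27224, 28931 and 18246 counts in MOCK, against 26609, 21355 and 22077 counts with CYGB. Its log2 fold change was -0.11 (SE 0.20) and 0.02 without MOCK replicate 1.

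HNRNPA2B1, which binds silencers and also sorts RNAs for transport, had 28977, 35871 and 34049 counts in MOCK, against 30294, 27848 and 25668 counts with CYGB. Scaled to library size, every MOCK library was above every CYGB library, with 650 ± 33.9 CPM against 544 ± 55.4 CPM (SD, n = 3 each). The log2 fold change was -0.26 (SE 0.09, unadjusted p = 0.0338, adjusted p = 0.963, edgeR). HNRNPDL, a relative of HNRNPD, had 12220, 13588 and 9624 counts in MOCK, against 8820, 9301 and 8279 counts with CYGB. The groups did not overlap, at 234 ± 40.9 CPM against 171 ± 12.9 CPM (SD, n = 3 each). HNRNPDL had a log2 fold change of -0.45 (SE 0.15, unadjusted p = 0.0212, adjusted p = 0.963, edgeR). HNRNPK, a KH domain protein that binds runs of cytidine, had 22366, 18183 and 19042 counts in MOCK, against 16906, 24413 and 27421 counts with CYGB. CYGB replicate 1 was the lowest of the 6 libraries and CYGB replicate 3 the highest (log2 fold change 0.17, SE 0.20). With a library left out the difference ranged from 0.04 without CYGB replicate 3 and 0.08 without MOCK replicate 2 to 0.32 without MOCK replicate 1 and 0.35 without CYGB replicate 1.

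Some large differences rested on 1 library. HNRNPUL2, a member of the HNRNPU family, had 16636, 12257 and 10134 counts in MOCK, against 1794, 9602 and 9173 counts with CYGB. The groups did not overlap, CYGB replicate 1 was 6.45-fold below the mean CPM of the other 5 libraries, and the log2 fold change was -0.97 (SE 0.61, adjusted p = 0.963, edgeR). It was -0.51 without CYGB replicate 1. A readthrough transcript that joins this gene to BSCL2 had 492 counts in that library and 69 to 306 in the others. HNRNPA3 had 23767, 28384 and 27635 counts in MOCK, against 9365, 27901 and 23100 counts with CYGB. The same library, CYGB replicate 1, was the low one, and the log2 fold change was -0.43 (SE 0.37), or -0.08 without it. HNRNPA0, a gene with 1 listed transcript, had 21875, 4665 and 21158 counts in MOCK, against 25857, 21797 and 23278 counts with CYGB. MOCK replicate 2 was 5.11-fold below the mean CPM of the others, and the log2 fold change was 0.52 (SE 0.56), or 0.08 without it. HNRNPR, singled out after its values were seen, was also low in MOCK replicate 2, with 4412 counts against 10950 to 14517 counts in the other libraries.

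HNRNPH2, also singled out after its values were seen, had 460, 4879 and 893 counts in MOCK, against 904, 4786 and 2540 counts with CYGB. Of the members with a mean of at least 1000 counts, 4 of 31 (12.9%) differed at least 3-fold between libraries of 1 group, beside 752 of 7913 genes (9.50%) of the same minimum. The median ratio of the highest to the lowest library within a group was 1.49 for members and 1.30 for these genes.

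At the level of the transcript, 266 of the 373 transcripts were tested. The threshold of the methods was passed by 1 of them, against 1.02% of the 66609 transcripts tested, and none had an adjusted p under 0.05, against 0.0150%. With edgeR's quasi-likelihood test 8 member transcripts (3.01%) had an unadjusted p under 0.05, beside 3.78% of all transcripts. DESeq2 gave 2 of 258 (0.775%) with an adjusted p under 0.05, beside 1.14% of all transcripts. By type, 13 of 27 tested coding transcripts of SR genes were higher in CYGB-overexpressing cells, as were 6 of 21 retained intron and 7 of 18 NMD transcripts. For hnRNP genes, 48 of 103 coding, 22 of 51 retained intron and 4 of 14 NMD transcripts were higher. The median log2 fold changes of these classes lay between -0.11 and -0.001.

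The transcript past the threshold was the NMD transcript ENST00000555547 of SRSF5, whose early stop codon is printed above. It had 247, 370 and 272 counts in MOCK, against 85, 107 and 136 counts with CYGB. All MOCK libraries were above all CYGB libraries. The log2 fold change was -1.44 (SE 0.31, unadjusted p = 0.00436, adjusted p = 0.622, edgeR's quasi-likelihood test), and over the other settings it ranged from -1.60 to -1.29 with an adjusted p of 0.00108 (DESeq2) to 0.995. It no longer passed the threshold with any single library left out other than CYGB replicate 3 (unadjusted p = 0.01003 to 0.0184, edgeR), nor with edgeR's exact test (unadjusted p = 0.0115). This transcript made up 4.20% of the counts of SRSF5, and 0.6% of its 150-base windows are absent from the gene's other transcripts. The gene as a whole had 5400, 4860 and 4721 counts in MOCK, against 6364, 4155 and 4078 counts with CYGB, with overlapping groups (log2 fold change -0.06, SE 0.21).

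**Figure D3:**
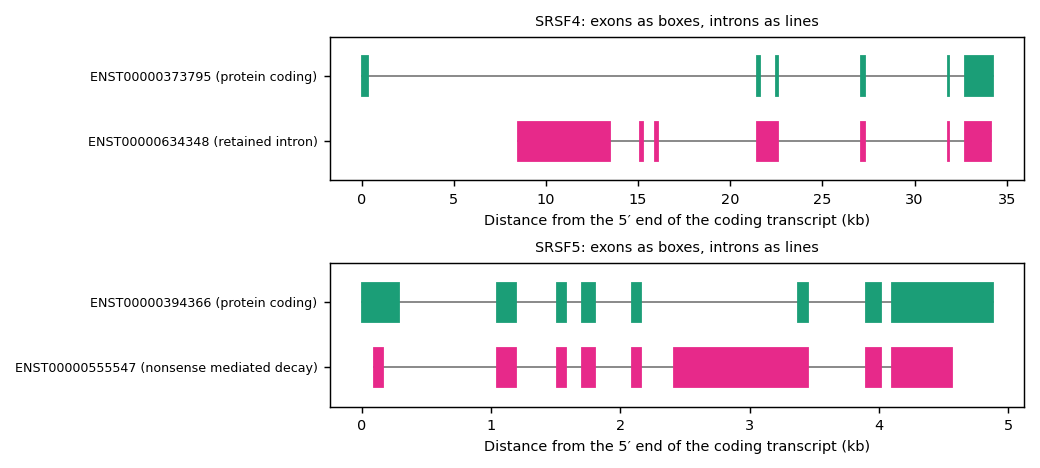
Exons (boxes) and introns (lines) of a coding transcript (green) and an unproductive transcript (pink) of SRSF4 and SRSF5, by distance in kb from the 5′ end of the coding transcript. In SRSF5 the NMD transcript has an exon of 1030 bases reaching upstream of a coding exon, and in SRSF4 the retained intron transcript starts within the long first intron and joins neighbouring coding exons across an intron of 888 bases.

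SRSF4 showed its largest contrasts between transcripts. Its coding transcript ENST00000373795 had 4893, 5514 and 971 counts in MOCK, against 444, 513 and 1214 counts with CYGB. MOCK replicates 1 and 2 were high, and MOCK replicate 3 lay between CYGB replicates 2 and 3. Its retained intron transcript ENST00000634348 had 886, 1021 and 898 counts in MOCK, against 4726, 1413 and 1876 counts with CYGB. Here the groups did not overlap, and CYGB replicate 1 was the highest. The log2 fold changes were -2.41 (SE 0.76, unadjusted p = 0.0207) and 1.51 (SE 0.49, unadjusted p = 0.0228, or 0.80 on the log2 scale without CYGB replicate 1). Neither passed the threshold, and both adjusted p were 1.00 (edgeR's quasi-likelihood test).

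The intron that ENST00000634348 keeps spans 888 bases, from 29159487 to 29160374 on chromosome 1 of GRCh38. The end of the coding exon in small letters and the first 120 bases of the kept intron in capitals lie at chr1:29160255-29160414 (minus strand) and show the splice site that this transcript leaves unused.
SRSF4 ENST00000634348: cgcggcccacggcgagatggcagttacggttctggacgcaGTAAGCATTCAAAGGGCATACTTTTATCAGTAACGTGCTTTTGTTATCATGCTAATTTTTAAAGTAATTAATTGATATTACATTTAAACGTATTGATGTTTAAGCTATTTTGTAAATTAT
Of the 150-base windows, 73.7% of those in ENST00000634348 and 9.2% of those in ENST00000373795 are found in no other transcript of SRSF4. ENST00000634348 also has exons of 4992, 138 and 175 bases inside the first intron of ENST00000373795. Its counts are therefore not a measure of the kept intron alone, and where in it the reads lay was not tested.

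HNRNPK was the only member called by the test of isoform usage, which asks whether the division of a gene among its transcripts differs between groups. Of 29 members tested, this 1 had an adjusted p under 0.05, against 2.00% of the 11478 genes tested. Over its 11 transcripts the F statistic was 4.80, with an adjusted p = 0.00806 over all genes tested by edgeR's diffSpliceDGE. The call was absent with limma's diffSplice (adjusted p = 0.353). On simulated counts the edgeR form of this test made too many calls among unchanged genes. That simulation gave every transcript the same low spread between libraries, unlike these data. It therefore cannot say how often such calls are false here. The HNRNPK call was also absent with any single library left out other than MOCK replicate 1 (adjusted p = 0.0549 to 0.256) and present without that 1 (adjusted p = 9.58e-05). An unadjusted p under 0.05 was reached by 3.45% of members and 8.50% of all genes.

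The HNRNPK transcript with the lowest unadjusted p was ENST00000376263, a coding transcript with 152, 1366 and 1558 counts in MOCK, against 118, 118 and 96 counts with CYGB. MOCK replicate 1 was near the CYGB libraries, although the groups did not overlap. The log2 fold change was -3.19 (SE 0.85, unadjusted p = 0.0105, adjusted p = 0.979, edgeR), and DESeq2 gave an adjusted p of 0.0277. ENST00000376281 differs from it by its first exon and had 672, 1129 and 1507 counts in MOCK, against 1149, 2119 and 1488 counts with CYGB. The main transcript ENST00000351839 had 16527, 11551 and 12660 counts in MOCK, against 11604, 18184 and 19877 counts with CYGB. The groups overlapped in both of these. Only 0.7% of the 150-base windows of ENST00000376263 occur in no other transcript of the gene. The end of its reading frame, from the start of the last exon to the stop codon, lies at chr9:83969407-83969440 (minus strand). It is shown because ENST00000351839 lacks it, as the capitals mark. The last exon of ENST00000376281 starts at the same base, so this stretch does not set ENST00000376263 apart from that transcript.
HNRNPK ENST00000376263: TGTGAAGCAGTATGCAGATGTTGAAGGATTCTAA

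HNRNPDL had the most changeable leading transcript, with 4 different transcripts first in some library. Its coding transcript ENST00000621267 had 3195, 8451 and 1456 counts in MOCK, against 1298, 940 and 898 counts with CYGB (log2 fold change -2.04, SE 0.64, unadjusted p = 0.0203, adjusted p = 1.00, edgeR). The groups did not overlap. ENST00000602300 had 1, 1 and 2855 counts in MOCK, against 2191, 2886 and 2895 counts with CYGB, so that MOCK replicate 3 resembled the CYGB libraries. Apart from 1 window of ENST00000295470, no 150-base window of these 3 HNRNPDL transcripts is absent from the gene's other transcripts. ENST00000295470 had 4182, 105 and 1945 counts in MOCK, against 2478, 1995 and 1502 counts with CYGB. In 18 of 29 members (62.1%) the same transcript led in all 6 libraries, as in 4532 of 7019 genes (64.6%) with a mean of at least 1000 counts.

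**Figure D4:**
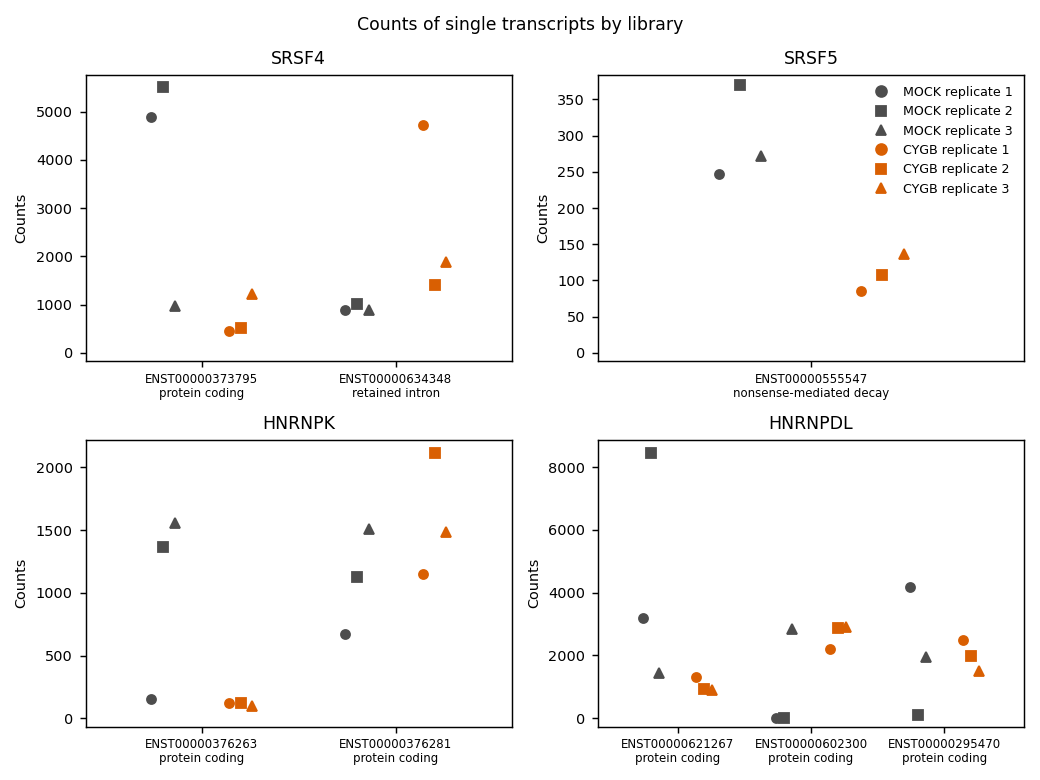
Counts of the named SRSF4, SRSF5, HNRNPK and HNRNPDL transcripts in each library (grey, MOCK; orange, CYGB; symbol shape, replicate number), on linear axes that include 0. The SRSF5 transcript is separated by group, whereas in the SRSF4 coding transcript, HNRNPK ENST00000376263 and HNRNPDL ENST00000602300 a MOCK library lies near the CYGB libraries.

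The unproductive share of a gene is the percentage of its counts in NMD and retained intron transcripts. Counts were not divided by transcript length here, so long transcripts weigh more and the share is not a fraction of molecules. In SRSF4, ENST00000634348 has 7979 different 150-base windows and the coding transcript ENST00000373795 has 2238. Among members with enough counts, the mean share was above 40% in both groups in 5 of 11 SR genes and 4 of 15 hnRNP genes. How many of all genes lay above 40% was not counted. The median over all 6 libraries was 46.6% for SR genes and 4.92% for hnRNP genes. The median over the 26 members was 10.7%, beside 9.54% for all genes tested. In SRSF1 it was 93.2, 94.8 and 88.1% in MOCK and 76.6, 90.3 and 96.5% in CYGB-overexpressing cells. Nearly all of it was ENST00000581979, the transcript printed above, with 85.6% of the counts of SRSF1, while the coding transcript ENST00000258962 had 2 to 8 counts per library. Of the 150-base windows, 1.7% of those of ENST00000581979 and none of those of ENST00000258962 are absent from all of the gene's other transcripts. This share does not measure how far these transcripts differ from each other.

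SRSF7 had an unproductive share of 84.4, 67.6 and 59.7% in MOCK and 67.4, 62.4 and 69.8% in CYGB-overexpressing cells. Its NMD transcript ENST00000443213 held 50.1% and ENST00000425778 held 14.4% of its counts, as means over libraries. They changed places in MOCK replicate 3, with 508 and 2009 counts against 2465 to 3093 and 299 to 512 counts in the other libraries. None of the 150-base windows of either is absent from the gene's other transcripts. HNRNPL, which binds CA repeats, had the highest mean share at 92.9%, with ENST00000595443 and ENST00000597731 as its leading retained intron transcripts. HNRNPA2B1 had 68.4%, with ENST00000490912 and ENST00000463181 as its leading retained intron transcripts, and HNRNPU had 59.4%. At the other end, SRSF11, HNRNPLL, HNRNPUL1, HNRNPUL2, HNRNPA3 and HNRNPAB had mean shares under 1%.

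Between groups, none of the 26 members had an adjusted p under 0.05 (limma on the logit of the share), against 0.143% of 8375 genes. An unadjusted p under 0.05 was reached by 1 member (3.85%) and by 4.84% of all genes. The groups did not overlap in 3 members, against 10.0% of all genes. The share was higher in CYGB-overexpressing cells in 8 members and lower in 18, with a median difference of -0.43 percentage points, beside -0.06 points for all genes. In SRSF4 it was 16.2, 15.9 and 48.9% in MOCK and 91.5, 73.7 and 60.0% in CYGB-overexpressing cells. All CYGB libraries were above all MOCK libraries, MOCK replicate 3 being the nearest. The difference of 48.1 percentage points (unadjusted p = 0.0141, adjusted p = 0.896, limma) was 39.8 to 59.0 points with a library left out. It was 47.7 points with retained intron transcripts alone and 0.39 points with NMD transcripts alone. As the counts above show, the coding transcript was lower and the retained intron transcript higher in CYGB-overexpressing cells on average, and the share moves with both. In SRSF3 the share was 14.2, 12.6 and 11.1% in MOCK and 10.6, 5.67 and 10.5% in CYGB-overexpressing cells, a difference of -3.67 points (adjusted p = 0.957, limma). In HNRNPUL1 it was 0.534, 1.19 and 0.523% in MOCK and 0.489, 0.386 and 0.441% in CYGB-overexpressing cells, a difference of -0.31 points (adjusted p = 0.957, limma). Retained intron transcripts held 10.3 to 15.4% of member counts per library and 6.39 to 6.89% of all counts.

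**Figure D5:**
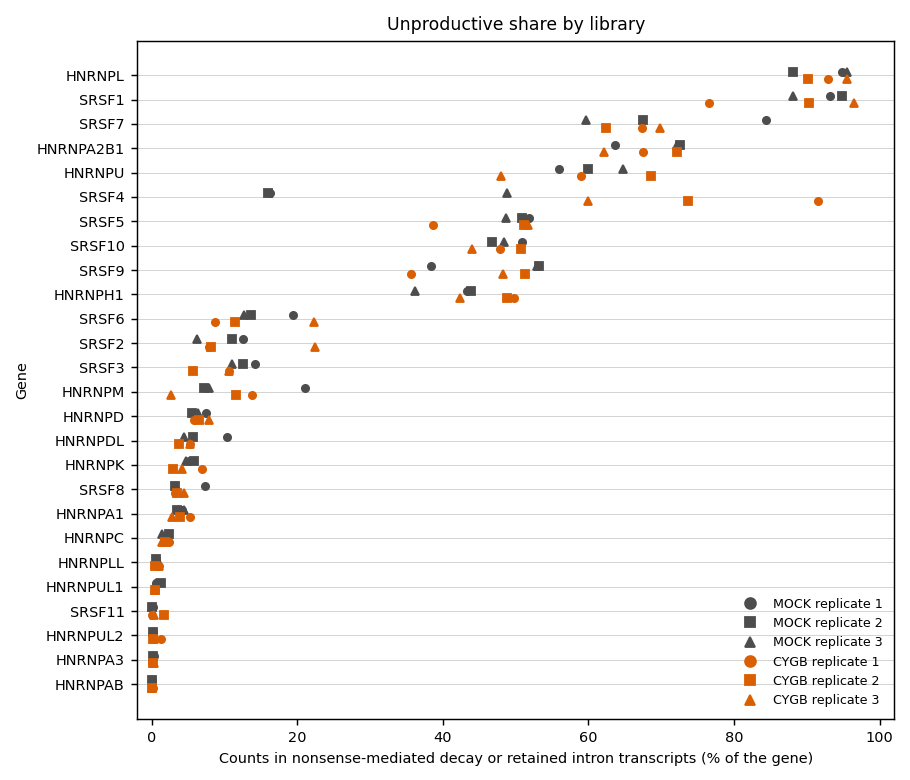
Percentage of each member's counts in NMD or retained intron transcripts, by library, for the 26 members with enough counts (grey, MOCK; orange, CYGB; symbol shape, replicate number). HNRNPL, SRSF1 and SRSF7 lie to the right in both groups, and SRSF4 is the gene whose CYGB libraries, at 60.0 to 91.5%, lie farthest from its MOCK libraries, at 15.9 to 48.9%.

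The genes that act on or beside these factors gave no calls either. Of 9 kinases that phosphorylate SR proteins (the SRPK and CLK families and their relatives), 22 SR-like proteins, 22 other hnRNP-type RNA-binding proteins, 37 core proteins of the spliceosome and 15 NMD factors, all were tested. By edgeR's quasi-likelihood test none passed the threshold of the methods or reached an adjusted p under 0.05, and 2 core spliceosome genes of 37 (5.41%) had an unadjusted p under 0.05, beside 4.54% of all genes. The median log2 fold changes were -0.04, 0.02, -0.003, 0.03 and 0.008. Some members overlap other genes on the opposite strand, and whether counting used strand is not given in the sources used here. HNRNPA2B1 overlaps CBX3 (9274 to 12644 counts per library), HNRNPUL1 overlaps TGFB1 (6445 to 7945 counts), SRSF9 overlaps GATC (2716 to 3269 counts), HNRNPU overlaps COX20 (2312 to 2885 counts) and SRSF2 overlaps MFSD11 (803 to 1339 counts).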

How the data were processed

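RNA of 3 MOCK and 3 CYGB libraries of HCT116 cells was sequenced in paired ends, each triplicate as an independent library. The deposited file is 1 table of raw, unnormalized read counts for each transcript, made by the authors. The submitters' processing notes name HISAT2, HISAT, DESeq2 and the build hg19, without their roles. How reads were divided among isoforms is not given in the sources used here, so isoform values and TPM carry more doubt than gene sums of counts. Columns named MK were taken as MOCK. Of the 172678 transcripts, 21225 carry no gene or position and were left out (18.6 to 19.5% of counts). GENCODE 29 holds 151393 of the remaining ones, 99.6% at an identical position, and coordinates are therefore GRCh38. The table lists 373 of the 402 GENCODE 29 transcripts of the members. Library pairs differed by far more than sampling noise (chi-square per gene at least 72.9), and each counted as 1 replicate.

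Counts were summed per gene and tested per gene and per transcript with edgeR 4.0.16 (filterByExpr with minimum count 10, TMM, glmQLFit, glmQLFTest), isoform usage with diffSpliceDGE, and the unproductive share (0.5 counts added to both parts, a mean total of at least 50 counts and at least 10 unproductive counts) with limma 3.58.1, in R 4.3.3. Benjamini-Hochberg adjustment ran over all features. Biological coefficients of variation were 36.6% (genes) and 78.9% (transcripts). Steps were tested on simulated data. The share of 150-base windows of a transcript that its gene's other transcripts lack was computed from GENCODE 29 sequences. Alternatives were DESeq2 1.42.0 and its size factors, edgeR's exact test, limma's diffSplice, other filters, share definitions, a replicate block, leaving out each library, and, added after the data were seen, keeping the transcripts without a gene. The labels do not say that replicate numbers pair the libraries, and the main tests did not pair them. Figures were drawn with matplotlib 3.10.9.

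Values in every library were given for members past a call rule, the 6 with the largest fold change, the 6 of highest CPM, and SRSF1, SRSF2, SRSF3, SRSF7, HNRNPA1, HNRNPA2B1, HNRNPDL and HNRNPK. They were also given for transcripts past the threshold, members called for usage and members whose shares did not overlap. Other SRSF4, HNRNPK, HNRNPDL and SRSF7 transcripts, HNRNPR and HNRNPH2 were chosen after their values were seen. The members and lists were chosen with earlier results of these data known. Protein sequences were not used here.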

Additional observations from a re-analysis of the deposited data

How the results depend on the processing

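Across all alternatives 0 members passed the threshold of the methods or had an adjusted p under 0.05 at gene level, and 0 genes of the other splicing lists passed the threshold. Of all genes 113 passed it, and 62 to 268 under the alternatives. Member transcripts past the threshold numbered 1, but 3 without an expression filter, 5 under DESeq2, 3 under the exact test of edgeR and 0 to 5 with a library left out (0 without CYGB replicate 2, 2 without CYGB replicate 1, 5 without MOCK replicate 3). The share of all transcripts past it was counted in the main setting alone (1.02%), so these shifts cannot be set beside all transcripts. At an adjusted p under 0.05 there were 0, but 2 with DESeq2 and 0 to 1 with a library left out (1 without MOCK replicate 3). Of all transcripts, 0.0150% had such a p in the main setting, 1.14% with DESeq2 and 0.00548% without MOCK replicate 3. Isoform usage called 1 member, but 0 with limma's diffSplice and 0 to 2 with a library left out: HNRNPK without MOCK replicate 1, HNRNPDL and HNRNPF without MOCK replicate 3, SRSF3 without CYGB replicate 1, and 0 without MOCK replicate 2, CYGB replicate 2 or CYGB replicate 3. Among all genes tested, usage was called in 229 of 11478, and in 96 of 11478 with limma's diffSplice. With a library left out it was called in 362 of 12060 (without CYGB replicate 1) to 409 of 12032 genes (without MOCK replicate 3). Members whose unproductive shares did not overlap numbered 3, but 5 with retained intron transcripts alone and 3 to 5 with a library left out (5 except without MOCK replicate 2), where fewer libraries overlap less by construction. For all genes this was counted in the main setting alone (10.0%). The summed level of members was 7112 TPM, and 7207 TPM over tested transcripts alone.

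With the replicate number as a block, 0 member transcripts passed the threshold (SRSF5 ENST00000555547 at an unadjusted p = 0.016, edgeR). Usage was then called in 0 members, beside 111 of 11478 genes, and the adjusted p of HNRNPK usage was 0.645 (edgeR's diffSpliceDGE). No other call changed under the block. Deviations of same-numbered libraries correlated at 0.029, 0.0052 and 0.031, so no effect shared by replicate number was visible. This cannot say whether same-numbered cultures were handled together. Of 282 alternatives for 22 named results, 269 kept their direction and their side of an adjusted p of 0.05, 7 lost this call (all HNRNPK usage) and 2 gained it (DESeq2, SRSF5 ENST00000555547 and HNRNPK ENST00000376263). By the threshold of the methods, SRSF5 ENST00000555547 passed in 6 of 13 alternatives (with a library left out, only without CYGB replicate 3), HNRNPK ENST00000376263 in 3, SRSF4 ENST00000373795 in 3 and SRSF4 ENST00000634348 in 1. The direction turned in 4, all with a library left out, and the cause was not tested. Over the libraries left out, the log2 fold change of HNRNPA1 ranged from -0.026 (without CYGB replicate 3) to 0.12, that of HNRNPD from -0.30 to 0.018 (without MOCK replicate 1), and that of SRSF2 from -0.087 (without CYGB replicate 3, and -0.052 without MOCK replicate 3) to 0.22.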
